A study of Mus musculus with 48 samples.

Results

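Transcript levels in mouse liver 168 h after LX-A2003 were compared with those in PBS liver at the same time. The comparison took the raw counts of the 4 libraries labelled LX-A2003 168h and the 4 labelled PBS 168h, which are 8 of the 48 libraries of the study, and followed every gene of the table. The study gave mice PBS or a gapmer against Scarb1 (LX-A1656, LX-A2003 or LX-A3928) and sampled the liver at 24 h, 72 h and 168 h with 4 replicates in each of the 12 groups. The labels name LX-A2003 as the only agent of the former livers and PBS as the only agent of the latter. LX-A2003 at 72 h, PBS at 72 h, and LX-A1656 and LX-A3928 at 168 h, also 4 libraries each, served as points of reference. The sources used here do not give dose, number of administrations, gapmer sequence and chemistry, or the sex, strain and age of the mice. Nothing in the labels says that replicates were separate animals, and the p-values therefore measure only a spread between libraries that may be technical.

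A gapmer is an antisense oligonucleotide with a DNA core and chemically modified ends. It pairs with its RNA, and RNase H then cleaves the RNA strand of the pair. Scarb1 encodes scavenger receptor class B type 1, through which hepatocytes take up cholesterol from high-density lipoprotein (HDL). Gapmers with high-affinity ends can injure hepatocytes, and injured liver typically loses metabolic transcripts, takes in monocytes and brings surviving cells into the cell cycle. This is background and not a result of these libraries.

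Each library read 1 amplified fragment per gene, and the 8 libraries held between 8239431 and 12230685 counts. Levels are given in CPM, the counts of a gene relative to its library total after TMM scaling, and they compare a gene between libraries but not 1 gene with another. Thinned to the same depth, LX-A2003 livers showed 15477 ± 156 genes with a count (SD, n = 4) and PBS livers 13724 ± 283 (SD, n = 4; exact two-sided permutation p = 0.0286, the smallest that 4 against 4 allows). The 50 most abundant genes held 25.9% ± 0.903 of the counts with LX-A2003 and 30.0% ± 1.14 with PBS (SD, n = 4 each; exact permutation p = 0.0286). LX-A2003 replicate 4 stood apart from its group: the chi-square per degree of freedom was 35.6 to 83.0 in pairs with it and 12.8 to 21.6 in the other pairs. In the PBS group, replicates 2 and 4 resembled each other (6.61), and the other pairs had values of 28.0 to 43.7. Results were therefore also computed without LX-A2003 replicate 4 and either PBS replicates 2 and 4 or PBS replicates 1 and 3.

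Scarb1, the targeted gene, was at 12.6, 14.2, 13.4 and 9.81 CPM in the LX-A2003 livers and at 362, 249, 410 and 259 CPM in the PBS livers. Every LX-A2003 library lay far below every PBS library. Scarb1 fell by 4.68 ± 0.245 on the log2 scale (SE; 95% interval -5.17 to -4.19; adjusted p = 1.49e-20 by edgeR's quasi-likelihood test, as for every adjusted p below). The sources used here do not say where the amplified fragment lies relative to the gapmer site.

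The LX-A2003 liver at 168 h differed from PBS liver across most of the transcriptome. Of the 12672 genes tested, 6987 were called at an adjusted p under 0.05, or 55.1%, with 3775 higher (29.8%) and 3212 lower (25.3%). The 4 libraries of one group lay wholly beyond the 4 of the other for 43.8% of genes. The median log2 fold change of all genes tested was 0.04. Scaling by library totals in place of TMM factors moved that median to 0.45 and the split to 5865 higher and 1685 lower, so the direction of small changes depends on the scaling. Without LX-A2003 replicate 4, 5790 genes were called when PBS replicates 2 and 4 were left out too, and 6890 when PBS replicates 1 and 3 were. The shares of 29.8% and 25.3% are the level against which every gene list below is read. The lists were chosen with earlier results of these data known, so a share above that level describes a list and is not independent support. For 22 of the 57 lists edgeR's test called no member in one direction, and in those directions 4 members had an unadjusted p under 0.05 and DESeq2 called 1.

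**Figure D1:**
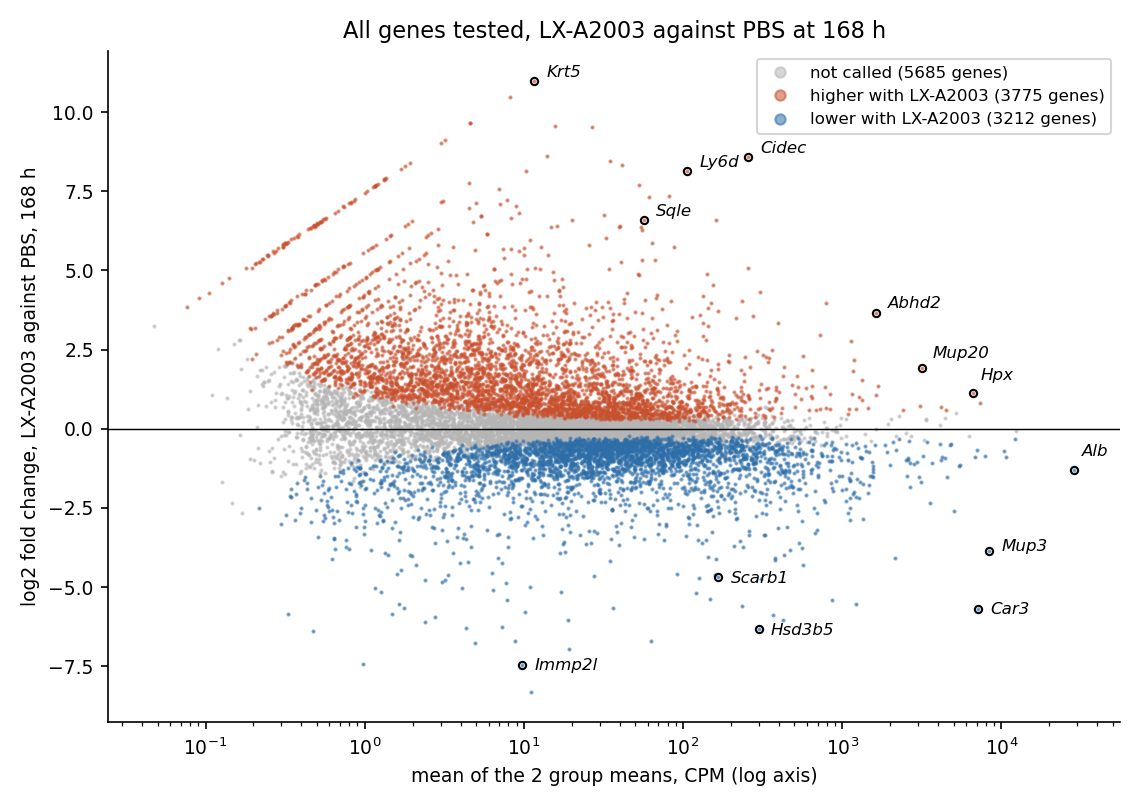
Log2 fold change of LX-A2003 against PBS at 168 h (vertical axis) against the mean level of the 2 groups in CPM (horizontal log axis), 1 point per gene tested. Orange points are the 3775 genes called higher, blue points the 3212 called lower and grey points the rest. Diagonal streaks at low levels are genes with no or very few counts in PBS, whose fitted fold is not a measurement. Car3 lies at -5.70, Alb at -1.32 and Mup20 at 1.90.

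The genes that rose furthest were nearly silent in PBS liver. Several are normally made by simple or stratified epithelia rather than by hepatocytes: the keratin gene Krt5, the keratin gene Krt20, the tight junction gene Cldn4, the trefoil peptide gene Tff3 and the surface protein gene Ly6d. Krt5 was at 25.2, 23.0, 20.9 and 23.3 CPM with LX-A2003, 1194 counts in all, and had 0 counts in all 4 PBS libraries, so it was at least 255-fold higher against a floor of 3 counts over the PBS group. Fosl1, an AP-1 transcription factor gene, had 838 counts against 0 and was at least 179-fold higher. For genes with 1 to 3 PBS counts the ratio is given with its 95% exact binomial interval, which covers counting error only. Gpnmb, a glycoprotein gene of lipid-laden macrophages, had a ratio of 1020 (183 to 40400). The ratio was 875 (242 to 7230) for Ypel4, 473 (131 to 3910) for the growth factor gene Bmp8b, 346 (95.5 to 2860) for Krt20 and 227 (62.7 to 1880) for Tff3.

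Cidec, which encodes a lipid droplet protein that promotes large droplets, was at 491, 636, 481 and 427 CPM with LX-A2003 and at 1.38, 2.07, 0.673 and 1.02 CPM with PBS. It rose by 8.58 ± 0.407 (adjusted p = 1.22e-21), and its libraries did not overlap. Ly6d was at 183, 284, 171 and 206 CPM against 1.01, 0.310, 1.48 and 0.254 and rose by 8.14 ± 0.471. The trypsin inhibitor gene Spink1 (8.47 ± 0.588), the neuropeptide gene Npy (8.34 ± 0.540) and Cldn4 (7.71 ± 0.466) rose by similar amounts, each from under 1 CPM in every PBS library. Adipose tissue also expresses Cidec. The adipocyte transcripts Adipoq and Lep had 0 counts in all 8 libraries, and whether their amplicons read in this kit was not tested.

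Some of the genes that fell furthest are male-biased or hormone-dependent liver genes: Hsd3b5, a steroid reductase, Mup21, a major urinary protein, and Sult2a8, a sulfotransferase. Hsd3b5 was at 7.87, 3.34, 11.2 and 6.85 CPM with LX-A2003 and at 711, 683, 241 and 718 CPM with PBS, and fell by 6.32 ± 0.484. Mup21 fell by 6.70 ± 0.480 and Sult2a8 fell by 5.89 ± 0.400. PBS replicate 3 was the lowest PBS library for all 3 genes, yet lay above every LX-A2003 library. Reads of the Mup, Sult and Cyp2 families could not be checked for assignment between near-identical members.

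Most of the others encode enzymes or carriers of metabolism. Car3, a carbonic anhydrase, was at 279, 227, 301 and 262 CPM with LX-A2003 and at 15517, 13365, 13534 and 13344 CPM with PBS, and fell by 5.70 ± 0.231 (adjusted p = 5.47e-24). Inmt, a methyltransferase gene, fell by 6.05 ± 0.349, and Cyp26a1, which clears retinoic acid, fell by 6.05 ± 0.925. Sult5a1 kept 3 counts against 729, a PBS to LX-A2003 ratio of 379 (129 to 1840). Pitx3, a homeobox gene, fell by 5.80 ± 0.522, and LOC108167326 fell by 6.95 ± 0.727. Immp2l, a mitochondrial peptidase subunit, Fhit, a diadenosine polyphosphate hydrolase, and Slc25a21, a mitochondrial oxodicarboxylate carrier, completed the 12 lowest and are described with gene length below.

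**Figure D2:**
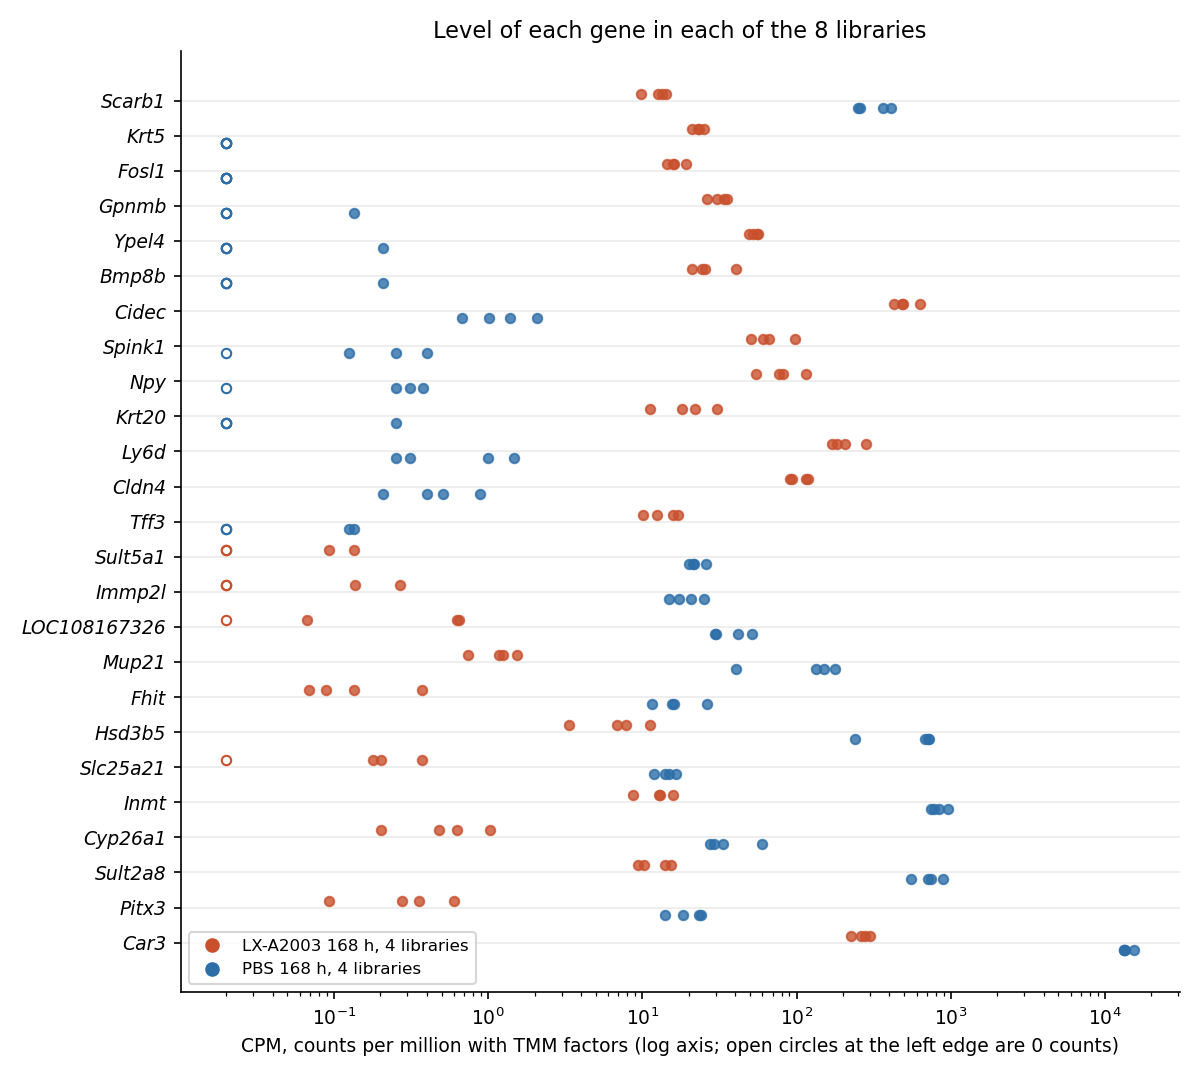
Level in CPM (horizontal log axis) of Scarb1, the 12 genes with the highest and the 12 with the lowest fold changes, 1 row per gene, with 4 LX-A2003 libraries (orange) and 4 PBS libraries (blue) at 168 h. Open circles at the left edge are libraries with 0 counts. The groups do not overlap for any gene, which the rule for choosing these 24 genes required. Scarb1 lies between 9.81 and 14.2 CPM with LX-A2003 and between 249 and 410 CPM with PBS.

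Genes were also ranked by change in mean CPM, although CPM do not compare the amount of 1 gene with another. The largest losses in CPM were mainly transcripts of secreted and cytosolic hepatocyte proteins. Alb, serum albumin, was at 14002, 14861, 15199 and 21180 CPM with LX-A2003 and at 50392, 37425, 36568 and 38205 CPM with PBS, and fell by 1.32 ± 0.261. Mup3 fell from 19435, 14880, 14016 and 14183 CPM to between 895 and 1192, and the fatty acid binding protein gene Fabp1 from between 7706 and 10126 CPM to between 1251 and 1546. The selenoprotein gene Sepp1 fell by 0.89 ± 0.181, and Apoc1 by 0.70 ± 0.155, a call that was lost when libraries were scaled by totals (-0.28) and without LX-A2003 replicate 4 and PBS replicates 1 and 3 (-0.35). The largest gains were Hpx, the heme binding protein hemopexin, at 10156, 11076, 8310 and 6706 CPM against 5542, 3024, 4778 and 3093, and the chaperone gene Clu (0.82 ± 0.168). Mup20 rose by 1.90 ± 0.291 while Mup3 and Mup21 fell. Abhd2, a lipid hydrolase gene, was at 3272, 3478, 2859 and 2393 CPM against 265, 241, 228 and 209 and rose by 3.67 ± 0.211. Actb rose by 0.68 ± 0.182, and the desaturase gene Scd1 by 0.58 ± 0.235 (adjusted p = 0.0331), a call that did not hold without LX-A2003 replicate 1, 2 or 3 or without PBS replicate 1 or 4 (0.47 to 0.57).

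Cholesterol synthesis genes rose. Of 17 tested members of 19 listed, 14 rose and 2 fell, with a median of 1.65. Sqle, squalene epoxidase, an early oxygenation step of the pathway, was at 103, 121, 118 and 107 CPM with LX-A2003 and at 1.01, 1.24, 0.538 and 1.78 CPM with PBS, and rose by 6.59 ± 0.353 (adjusted p = 3.97e-20). Hmgcs1, an early synthase of the pathway, rose by 2.23 ± 0.210 and Hsd17b7 by 1.45 ± 0.142. The members that fell were Ebp (-1.31) and Sc5d (-0.56), a late isomerase and a late desaturase, chosen here after their values were seen. The fall of Sc5d was not called when libraries were scaled by totals (-0.14) or without LX-A2003 replicate 4 and PBS replicates 2 and 4 (-0.55).

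Of the genes that sense sterol or control its uptake, 7 of 13 rose and 4 fell (median 0.42), and 8 rose and 1 fell with scaling by totals. Srebf2, the transcription factor of the pathway, was at 31.6, 46.6, 28.7 and 20.6 CPM against 10.7, 9.83, 19.5 and 8.89 and rose by 1.38 ± 0.254. The lysosomal cholesterol exporter gene Npc2 rose by 1.18 ± 0.184 and Npc1 by 0.84 ± 0.164. The core of the sterol regulatory element was searched as TCACNCCAC on both strands of promoter windows, which hold the 250 bases before each start. It lay in 1 of the 13 sterol synthesis members with a window. It lay in 1.05% of the 32851 windows of RefSeq (GRCm38.p6). The Hmgcs1 window, on the plus strand at chr13:119690158-119690277, is shown because it holds that core, in capitals.
Hmgcs1: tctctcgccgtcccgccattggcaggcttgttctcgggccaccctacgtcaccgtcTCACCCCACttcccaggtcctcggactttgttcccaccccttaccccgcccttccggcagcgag
A match is a description of letters, and it is not shown here to be a bound site.

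HDL and cholesterol transport genes mostly fell, with 10 of 16 lower and 4 higher (median -0.56; 7 lower and 5 higher with scaling by totals). Besides Scarb1, the hepatic lipase gene Lipc fell by 2.17 ± 0.176. The sterol exporter gene Abcg1 rose by 2.43 ± 0.209, and Pltp, which moves phospholipid between lipoproteins, by 2.09 ± 0.223. Apoa1, the main protein of HDL, was not called (0.13 ± 0.221; adjusted p = 0.637), and was named after its value was seen. With scaling by totals Apoa1 was called higher (0.55; adjusted p = 0.0119 by edgeR). Of the genes of triglyceride-rich lipoproteins 7 of 16 fell and 4 rose, or 5 and 6 with scaling by totals: Apob fell by 1.00 ± 0.161, while Tm6sf2, needed for lipid loading of VLDL, rose by 1.75 ± 0.223.

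Fatty acid synthesis genes divided, with 6 of 16 higher and 5 lower (median 0.06; 8 and 2 with scaling by totals). The count of lower genes was 3 without LX-A2003 replicate 1 or 4 and 2 without PBS replicate 3. Fasn, fatty acid synthase, was at 557, 849, 558 and 254 CPM with LX-A2003 and at 146, 84.8, 197 and 90.7 CPM with PBS and rose by 2.10 ± 0.349, and the desaturase gene Fads2 by 1.53 ± 0.189. Mlxipl, the carbohydrate-responsive transcription factor ChREBP, fell by 2.81 ± 0.297, and the acyltransferase gene Agpat2 by 1.39 ± 0.176. Of the fatty acid oxidation genes 10 of 18 fell and 4 rose (median -0.46; 7 and 4 with scaling by totals). Cpt1a, which admits fatty acids to the mitochondrion, rose by 1.34 ± 0.141.

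Bile acid synthesis genes fell nearly as a whole, with 12 of 13 tested members lower and none higher by edgeR's test, and a median of -1.02 (8 lower and 0 higher with scaling by totals). Cyp7b1, the oxysterol hydroxylase of the alternative pathway, was at 13.0, 7.34, 9.18 and 8.20 CPM with LX-A2003 and at 545, 517, 369 and 403 CPM with PBS, and fell by 5.60 ± 0.333 (adjusted p = 2.82e-18). Klb, the co-receptor for the gut hormone that represses bile acid synthesis, fell by 1.83 ± 0.257 and the bile acid ligase gene Slc27a5 by 1.47 ± 0.165. The member not called was Cyp7a1, the rate-limiting enzyme of the classical pathway, at 10.7, 11.1, 10.1 and 18.7 CPM against 6.53, 8.07, 6.19 and 6.98 (0.86 ± 0.604; adjusted p = 0.229). With only the 8 libraries in edgeR's fit Cyp7a1 was called higher (0.89; adjusted p = 0.00866). Of the bile acid and anion transporters 8 of 13 fell and 4 rose (median -0.70), or 6 and 5 with scaling by totals. Slc10a1, the uptake carrier NTCP, fell by 2.49 ± 0.209, the bile salt export pump Abcb11 by 2.24 ± 0.219, while the organic anion carrier Slc22a7 fell by 3.68 ± 0.288 and Slco1a1 by 3.35 ± 0.364.

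Genes of drug metabolism fell. In cytochrome P450 families 1 to 3, 25 of 40 fell and 6 rose (median -0.99). Cyp2c29 was at 48.0, 45.5, 50.1 and 63.1 CPM with LX-A2003 and at 2663, 2334, 2069 and 2538 CPM with PBS, and fell by 5.54 ± 0.269 (adjusted p = 1.19e-21). Cyp2f2, a marker of periportal hepatocytes, fell by 4.07 ± 0.241, and Cyp1a2, a pericentral one, by 1.93 ± 0.160. Of the conjugation enzymes 18 of 27 fell and 2 rose (median -1.25; 15 and 5 with scaling by totals; 18 and 4 without LX-A2003 replicate 4), and those that rose were the glutathione transferases Gstm3 (4.02 ± 0.323) and Gstm2 (2.16 ± 0.179). The growth hormone axis and sex-biased genes had the lowest median of all lists, -1.90, with 20 of 24 lower and 2 higher. Ghr, the growth hormone receptor, was at 30.9, 25.9, 44.2 and 59.8 CPM against 699, 771, 778 and 616 and fell by 4.15 ± 0.268. Elovl3, a fatty acid elongase gene, fell by 5.42 ± 0.412, and Igf1, the hormone the liver makes in answer to growth hormone, by 2.16 ± 0.254 (named after its value was seen).

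Transcripts of plasma proteins, glucose synthesis, amino acid breakdown and the respiratory chain were lower too. Of the secreted plasma proteins and coagulation factors 24 of 26 fell and none rose (median -1.05; 16 lower and 1 higher with scaling by totals; 1 was also higher without LX-A2003 replicate 2 or PBS replicate 4): factor VII (F7) fell by 1.68 ± 0.130, Hrg by 1.59 ± 0.151, F10 by 1.27 ± 0.127 and protein C (Proc) by 1.26 ± 0.101. Of the complement genes 15 of 22 fell and 4 rose (median -0.92), and the lectin gene Mbl1 fell by 2.67 ± 0.237 and C4bp by 2.53 ± 0.204. Of the gluconeogenesis and glycogen genes 16 of 20 fell and none rose (median -1.15; 13 and 1 with scaling by totals; 1 rose without LX-A2003 replicate 2). Fbp1, a phosphatase of glucose synthesis, was at 440, 411, 329 and 301 CPM against 1471, 1217, 1544 and 1156 and fell by 1.86 ± 0.173. Of the urea cycle and amino acid genes 19 of 30 fell and none rose (median -0.81; 14 and 2 with scaling by totals, median -0.38): the histidine lyase gene Hal fell by 3.83 ± 0.214 and the serine dehydratase gene Sds fell by 3.52 ± 0.350. All 31 nuclear-encoded respiratory chain genes tested fell, each by a small amount (median -0.88), and 23 fell with scaling by totals and 20 without LX-A2003 replicate 4 and PBS replicates 1 and 3. Atp5a1, a subunit of ATP synthase, fell by 0.99 ± 0.0975 and Cox5b by 1.19 ± 0.155. Glycolytic isoenzymes went the other way, with 12 of 17 higher and 2 lower (median 1.01). Pkm, the pyruvate kinase of fetal and growing tissues, was at 233, 307, 211 and 185 CPM against 38.6, 23.8, 37.8 and 23.9 and rose by 2.92 ± 0.195. In the same libraries the summed hepatocyte markers had a median of 46596 CPM with LX-A2003 and 81220 CPM with PBS, and their part in the losses was not tested.

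**Figure D3:**
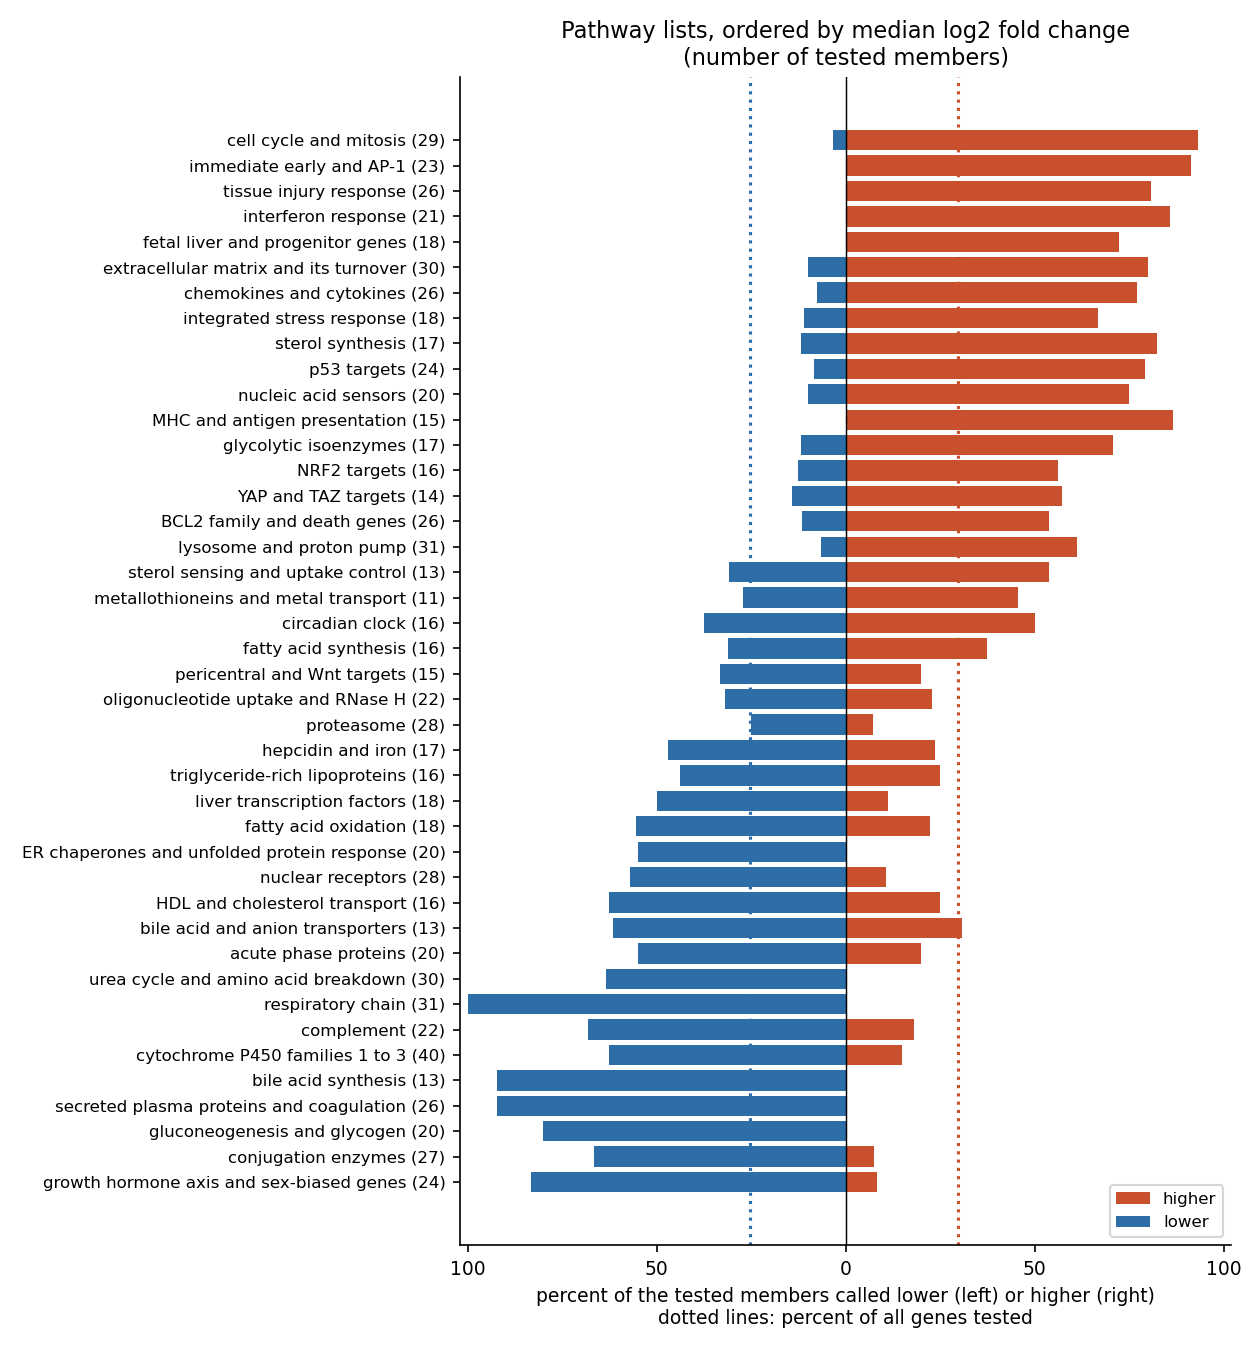
Percent of tested members called higher (orange, to the right) and lower (blue, to the left) in each of 42 pathway lists, ordered by median log2 fold change, with the number of tested members in brackets. Dotted lines mark the shares over all genes, 29.8% higher and 25.3% lower. Cell cycle, immediate early, injury and interferon genes stand at the top, and growth hormone axis, conjugation and gluconeogenesis genes at the bottom.

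Stress-response genes rose. Of the p53 targets 19 of 24 rose and 2 fell (median 1.35). Btg2, an antiproliferative gene, was at 121, 111, 100 and 97.2 CPM with LX-A2003 and at 3.27, 2.17, 3.37 and 1.78 CPM with PBS, and rose by 5.34 ± 0.304 (adjusted p = 2.92e-19). The death receptor gene Tnfrsf10b rose by 4.38 ± 0.338 and the kinase gene Plk3 by 3.60 ± 0.321. Cdkn1a, which encodes the cell cycle inhibitor p21 and was named after its value was seen, rose by 3.49 ± 0.394. A match to the pattern of the p53 response element lay in the promoter window of 1 of 20 members with a window, and in 0.0639% of all windows. That member is Cdkn1a, whose stretch on the plus strand at chr17:29090859-29090978 is shown with the match in capitals.
Cdkn1a: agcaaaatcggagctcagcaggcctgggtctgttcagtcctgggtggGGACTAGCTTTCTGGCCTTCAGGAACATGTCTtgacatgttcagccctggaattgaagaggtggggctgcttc
The capitals cover the whole match, which includes the bases between the repeated parts of the pattern. They are not shown to mark the full extent of an element.

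Of the integrated stress response genes, which act when translation is limited, 12 of 18 rose and 2 fell (median 1.79). Atf3, a transcription factor gene, was at 76.6, 84.3, 85.1 and 69.7 CPM against 0.880, 0.828, 1.08 and 0.889 and rose by 6.42 ± 0.264 (adjusted p = 6.65e-24). The asparagine synthetase gene Asns rose by 5.06 ± 0.496 and the serine synthesis gene Psat1 by 3.93 ± 0.395. Slc7a11, a cystine carrier gene named after its value was seen, had 121 counts against 0 and was at least 25.9-fold higher. The chaperones of the endoplasmic reticulum did not rise with them: 11 of 20 fell and none rose by edgeR's test (median -0.49), but with scaling by totals 1 fell and 2 rose, and 1 rose without LX-A2003 replicate 4 or PBS replicate 1. Derl3 fell by 4.79 ± 0.632, while Dnajb11 (-0.65), Pdia4 (-0.51) and Sel1l (-0.67) were not called with scaling by totals. Of the NRF2 targets, the antioxidant program, 9 of 16 rose and 2 fell (median 0.97). Srxn1 rose by 3.08 ± 0.183, Nqo1 by 2.71 ± 0.234 and the heme oxygenase gene Hmox1 by 2.18 ± 0.219. Of the BCL2 family and death genes 14 of 26 rose and 3 fell (median 0.71): Bid rose by 1.88 ± 0.181 and the necroptosis kinase gene Ripk3 by 2.85 ± 0.377, and Bik fell by 2.04 ± 0.232.

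Interferon-response genes rose, 18 of 21 with none lower (median 2.20). Bst2 was called lower with a replicate block (-0.26; adjusted p = 0.0486 by edgeR) and without LX-A2003 replicate 2 (-0.30) or PBS replicate 2 (-0.29). Irf7, the transcription factor that amplifies the response, was at 95.6, 117, 127 and 110 CPM with LX-A2003 and at 26.8, 24.1, 24.9 and 22.1 CPM with PBS, and rose by 2.20 ± 0.161 (adjusted p = 1.31e-15). Oasl1 rose by 3.62 ± 0.296, Oas1a by 2.97 ± 0.258 and the interferon brake gene Usp18 by 2.77 ± 0.221. Rsad2 (3.09 ± 0.290), which encodes viperin, and the chemokine gene Cxcl10 (2.59 ± 0.276) were also picked with their values known. The core of the interferon-stimulated response element was searched on either strand as GAAA, any 2 bases and GAAA again. It lay in the windows of 7 of 16 members with a window. Of the tested genes with a window 3.22% held it, and so did 2.98% of all windows. The members were Ifit1, Rsad2, Oas1a, Stat2, Cxcl10, Gbp2 and Bst2, of which Stat2 and Bst2 were not called. With scaling by totals Stat2 was called higher (0.64; adjusted p = 0.00569 by edgeR). Stretches of 3 of them are shown, all from the minus strand, with the core in capitals, at chr5:120907526-120907645 for Oas1a, chr12:26456508-26456627 for Rsad2 and chr5:92349020-92349139 for Cxcl10.
Oas1a: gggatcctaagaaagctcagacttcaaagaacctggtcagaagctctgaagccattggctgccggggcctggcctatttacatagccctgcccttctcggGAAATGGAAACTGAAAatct
Rsad2: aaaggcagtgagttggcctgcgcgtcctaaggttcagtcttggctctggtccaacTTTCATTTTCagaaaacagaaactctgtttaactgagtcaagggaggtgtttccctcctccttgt
Cxcl10: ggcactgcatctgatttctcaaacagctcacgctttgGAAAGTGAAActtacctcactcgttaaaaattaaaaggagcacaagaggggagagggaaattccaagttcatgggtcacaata
In Oas1a 2 overlapping matches make up the capitals, and in Rsad2 the match is on the opposite strand and so reads in reverse complement.

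The nucleic acid sensors rose as well, 15 of 20 with 2 lower (median 1.16), among them the RNA helicase gene Dhx58 (1.71 ± 0.151), the STING gene Tmem173 (1.87 ± 0.205) and the Z-form nucleic acid sensor Zbp1 (2.20 ± 0.265). Of the MHC and antigen presentation genes 13 of 15 rose and none fell (median 1.09): the class II invariant chain gene Cd74 was at 397, 485, 403 and 382 CPM against 101, 119, 106 and 105. Of the chemokines and cytokines 20 of 26 rose and 2 fell (median 1.97). Ccl6 was at 294, 327, 272 and 294 CPM against 13.4, 11.5, 16.6 and 9.52 and rose by 4.54 ± 0.312, and the monocyte attractant gene Ccl2 by 5.82 ± 0.423. The summed markers of monocytes and recruited macrophages had a median of 377 CPM against 71.1 in the same libraries, and their part in the rise of these immune genes was not tested. Of the acute phase proteins, by contrast, 11 of 20 fell and 4 rose (median -0.77; 9 and 7 with scaling by totals). Lcn2, lipocalin 2, rose by 5.33 ± 0.424 and Itih4 fell by 1.69 ± 0.165.

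Immediate early genes, which cells switch on within minutes of a stimulus, rose in 21 of 23 cases with none lower (median 3.23). Fos was at 17.0, 29.1, 16.1 and 13.0 CPM with LX-A2003 and at 0.754, 0.517, 1.08 and 0.508 CPM with PBS, and rose by 4.72 ± 0.377. Jun rose by 4.02 ± 0.341 and Klf4 by 3.56 ± 0.285. The AP-1 site TGANTCA lay in none of the 17 members' windows and in 6.75% of all windows. Tissue injury genes rose in 21 of 26 cases with none lower (median 3.11). The phospholipid-binding annexin gene Anxa2 was at 509, 526, 429 and 534 CPM against 18.5, 11.9, 12.8 and 15.6 and rose by 5.09 ± 0.248, and Tnfrsf12a, the receptor for TWEAK, by 4.90 ± 0.242.

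Genes of the cell cycle and mitosis rose in 27 of 29 cases with 1 lower (median 3.40), the highest median of the pathway lists. Ube2c, an anaphase-promoting enzyme, was at 60.4, 67.3, 65.6 and 61.9 CPM with LX-A2003 and at 6.16, 2.17, 2.83 and 4.70 CPM with PBS, and rose by 4.01 ± 0.265 (adjusted p = 4.19e-17). Ccnd1, the cyclin of the G1 phase, rose by 4.06 ± 0.286 and the mitotic cyclin gene Ccnb2 by 3.92 ± 0.270. Fetal liver and progenitor genes rose in 13 of 18 cases with none lower (median 2.16). Afp, alpha-fetoprotein, was at 75.2, 54.5, 48.1 and 134 CPM against 0.251, 1.66, 1.08 and 0.635 and rose by 6.37 ± 0.339. The imprinted RNA H19 had 563 counts against 3, a ratio of 120 (41.0 to 585). Of the YAP and TAZ targets 8 of 14 rose and 2 fell (median 0.84): Ajuba rose by 4.13 ± 0.283 and Ctgf by 2.75 ± 0.216. Of the extracellular matrix genes 24 of 30 rose and 3 fell (median 1.99). Col1a1, the main collagen of scar, was at 249, 394, 191 and 137 CPM against 30.7, 16.2, 29.7 and 18.9 and rose by 3.35 ± 0.337, and the macrophage elastase gene Mmp12 by 6.60 ± 0.593. The summed stellate cell and myofibroblast markers had a median of 975 CPM against 626, and their part in the rise of matrix genes was not tested.

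The remaining lists moved less evenly. Of the liver transcription factors 9 of 18 fell and 2 rose (median -0.45), but 5 fell and 5 rose with scaling by totals, and 5 fell without LX-A2003 replicate 4 and PBS replicates 1 and 3. Hlf fell by 3.28 ± 0.235, and Hnf4a, the master regulator of hepatocytes, which was named after its value was seen, by 0.40 ± 0.148. The call on Hnf4a was lost with scaling by totals (0.014), with only the 8 libraries in the fit (-0.37), without LX-A2003 replicate 4 (-0.32), without PBS replicate 3 (-0.24), and without LX-A2003 replicate 4 and PBS replicates 1 and 3 (-0.071). Of the nuclear receptors 16 of 28 fell and 3 rose (median -0.52; 6 and 3 with scaling by totals; 10 and 3 with only the 8 libraries in the fit). Thrb, the thyroid hormone receptor of the liver, fell by 2.71 ± 0.254, and Nr1i3, the drug-sensing receptor CAR, by 1.93 ± 0.192. Of the clock genes 8 of 16 rose and 6 fell (median 0.26). Per1 was at 71.2, 51.8, 75.0 and 69.7 CPM against 0.251, 1.66, 4.31 and 2.03 and rose by 5.04 ± 0.527, while Npas2 fell by 3.36 ± 0.333. The sources used here do not give the hour of day at which the livers were taken. Of the hepcidin and iron genes 8 of 17 fell and 4 rose (median -0.34; 3 and 5 with scaling by totals; 5 fell without LX-A2003 replicate 4 and PBS replicates 1 and 3): Id1, a target of BMP signals, rose by 4.23 ± 0.333, Tmprss6 fell by 1.32 ± 0.214, and Hamp, hepcidin itself, was not called (-0.12; adjusted p = 0.737; named after its value was seen).

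Of the metallothionein and metal transport genes 5 of 11 rose and 3 fell (median 0.35), and Mt1 was at 1639, 1949, 1414 and 959 CPM with LX-A2003 and at 69.4, 85.1, 66.2 and 163 CPM with PBS, a rise of 3.96 ± 0.610. Lysosome and proton pump genes rose in 19 of 31 cases with 2 lower (median 0.46), with Cd63 rising by 3.78 ± 0.207 and Cd68 by 3.73 ± 0.241. Among genes of oligonucleotide uptake and RNase H 5 of 22 rose and 7 fell (median -0.10; 7 and 5 with scaling by totals; 3 and 7 without LX-A2003 replicate 4). Of these Stab2, an endothelial receptor for phosphorothioate oligonucleotides, fell by 1.91 ± 0.198, Asgr1, a subunit of the asialoglycoprotein receptor, by 0.86 ± 0.149 and Egfr by 2.76 ± 0.247. Rnaseh1, the enzyme that cleaves gapmer-bound RNA, was not called (-0.03 ± 0.228; adjusted p = 0.932; named after its value was seen). Of the proteasome genes 2 of 28 rose and 7 fell (median -0.23), against 11 higher and 2 lower with scaling by totals. The count of higher proteasome genes was 1 without LX-A2003 replicate 2 or 3 or PBS replicate 2 or 4. Pericentral and Wnt target genes included 5 of 15 lower and 3 higher (median -0.08; 2 and 6 with scaling by totals; 5 higher without PBS replicate 3): Cyp2e1 fell by 0.85 ± 0.147 and Ahr rose by 1.24 ± 0.154.

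Markers of inflammatory macrophages rose and markers of hepatocytes fell. In bulk liver fewer cells of a type and less RNA per cell cannot be told apart. A sum of markers weighs most on those with high CPM. Mean levels changed by -24337 CPM for the hepatocyte marker Alb and by 202 CPM for the Kupffer cell marker Cd5l. The 11 hepatocyte markers summed to between 41718 and 49789 CPM with LX-A2003 and between 75536 and 97221 with PBS, and 8 fell and none rose (5 and 2 with scaling by totals; 5 and 1 without LX-A2003 replicate 4 and PBS replicates 1 and 3), among them the transthyretin gene Ttr (-1.53 ± 0.271). All 8 markers of monocytes and recruited macrophages rose (median 2.75), from a sum of 65.4 to 82.9 CPM to 333 to 430. Lyz2, the lysozyme of myeloid cells, was at 211, 237, 206 and 270 CPM with LX-A2003 and at 58.7, 48.0, 51.4 and 48.2 CPM with PBS. All 10 markers of lipid-associated macrophages rose (median 3.93), with Lgals3 rising by 4.20 ± 0.292 and Trem2, a receptor that defines these cells and was named after its value was seen, by 4.53 ± 0.482. Of the Kupffer cell markers 4 of 9 rose and 1 fell (median 0.39; 7 and 0 with scaling by totals): Cd5l rose by 2.06 ± 0.138 and Clec4f by 0.71 ± 0.119.

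Of the sinusoidal endothelial markers 7 of 14 fell and 2 rose (median -0.56), or 5 and 4 with scaling by totals (median -0.16), and 1 rose without LX-A2003 replicate 1 or 4 or PBS replicate 1, 3 or 4. Their sum was 339 to 411 CPM against 603 to 674. Clec4g fell by 1.90 ± 0.222 and Kdr, a receptor for VEGF, fell by 1.20 ± 0.186. Stellate cell and myofibroblast markers rose in 8 of 12 cases with none lower (median 1.04; sum 808 to 1161 CPM against 584 to 657), among them Pdgfra (2.10 ± 0.194) and Lum (2.43 ± 0.331). Of the cholangiocyte markers 4 of 9 rose and 1 fell (median 0.39; sum 258 to 350 CPM against 143 to 177): besides Cldn4, Epcam rose by 2.10 ± 0.306 and Spp1 by 0.79 ± 0.217. The rise of the sum lay mainly in Cldn4 and Spp1, whose mean levels rose by 104 and 55.4 CPM, against 3.64 for Epcam and 1.71 for Muc1. Cldn4 is also on the tissue injury list and Spp1 on that of lipid-associated macrophages. The part of cholangiocytes in the rise of the epithelial genes above was not tested.

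Lymphoid and granulocyte markers were at low levels in both groups. The neutrophil sum was 11.0 to 18.2 CPM against 4.95 to 6.60, with 2 of 6 tested markers higher (4 with scaling by totals) and none lower (median 1.35), and Retnlg rising by 2.66 ± 0.512. The dendritic cell sum was 27.3 to 36.1 CPM against 6.66 to 12.8 (4 of 6 higher, none lower, median 2.06), with the integrin gene Itgax rising by 4.67 ± 0.407. Of the T cell markers 3 of 5 rose (median 1.00; sum 8.92 to 10.8 CPM against 4.55 to 5.92), but 1 was called without PBS replicate 2 and none without LX-A2003 replicate 4 and PBS replicates 2 and 4. Of the NK cell markers 4 of 6 rose (median 1.94; 2 of 6 without LX-A2003 replicate 4 and PBS replicates 2 and 4; sum 7.04 to 11.6 CPM against 1.88 to 3.77; Klrb1c at 0 in all 8 libraries). Of the B and plasma cell markers 3 of 5 fell and 1 rose (median -1.54; sum 4.84 to 6.69 CPM against 7.16 to 9.90). With only the 8 libraries in the fit 3 of these were tested, 1 fell and 1 rose, and the median was 0.59. All 3 tested mast cell markers rose (median 1.90; 2 of 3 with a replicate block or without LX-A2003 replicate 4; sum 12.2 to 28.1 CPM against 1.52 to 4.17), led by the tryptase gene Tpsab1 at 13.3, 16.6, 5.62 and 10.8 CPM against 0.251, 0.207, 0.135 and 0. The defining mast cell genes Mcpt4, Ms4a2 and Fcer1a had 0 counts in all 8 libraries. Of the red cell markers 2 of 5 fell, or 1 without LX-A2003 replicate 1 or 3 or PBS replicate 1 or 3 (median -0.87; sum 93.8 to 137 CPM against 358 to 490), with Alas2 falling by 1.97 ± 0.161. Of the mesothelium and adipocyte markers 2 of 5 rose, and their median of -0.20 became 0.42 without LX-A2003 replicate 4 and 0.19 with scaling by totals. Cidec made up nearly all of their sum of 430 to 648 CPM. Alas2, whose mean level fell by 292 CPM, likewise made up most of the fall in the red cell sum.

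**Figure D4:**
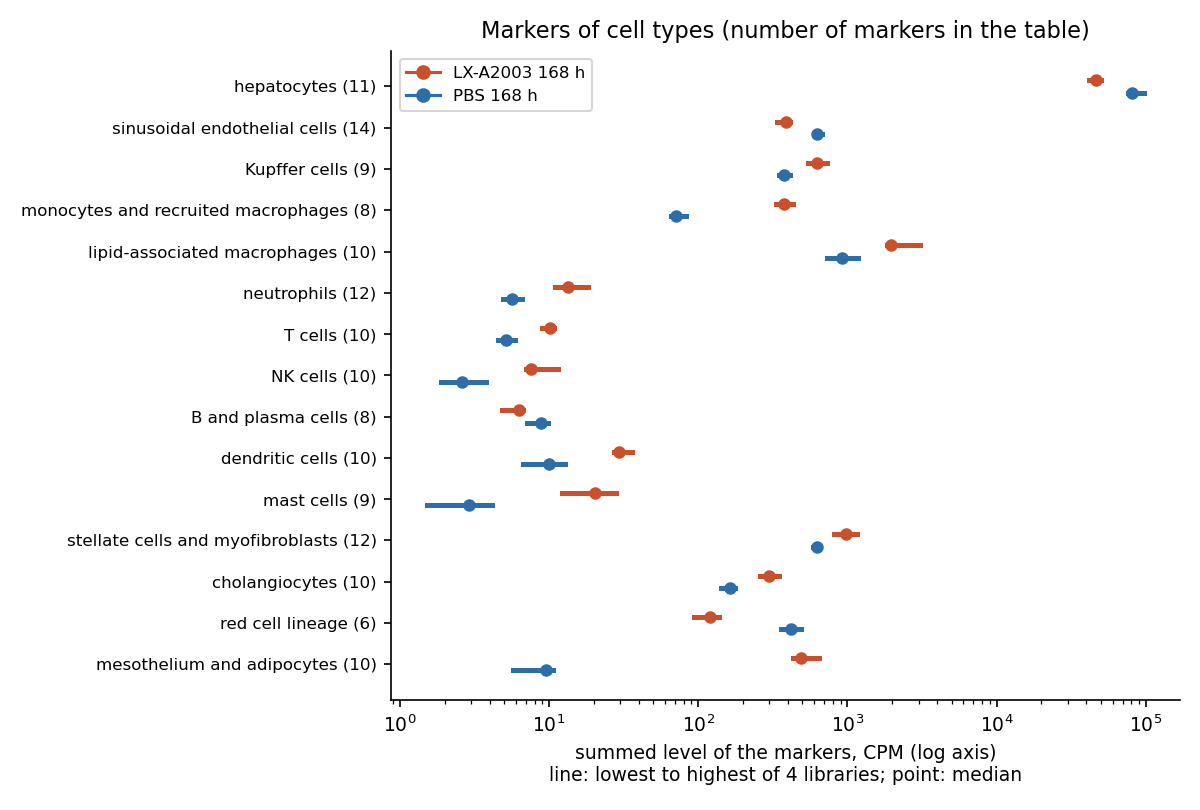
Summed level of the markers of 15 cell types in CPM (horizontal log axis) for LX-A2003 (orange) and PBS (blue) at 168 h, where the line runs from the lowest to the highest of 4 libraries and the point is the median. The number of markers in the table is in brackets. The ranges of the groups do not overlap for any of the 15 types. The sums for hepatocytes, sinusoidal endothelial cells, B and plasma cells and red cells are lower with LX-A2003. A sum weighs most on its markers with high CPM.

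Long genes fell more often than short ones. Of the 272 tested genes that span more than 300 kb of the genome in the GENCODE vM21 annotation, 53.7% fell and 15.4% rose, with a median of -0.76. In genes of 10 kb or less 24.0% fell and 30.6% rose, and in genes of 100 to 300 kb 35.1% fell and 25.0% rose (median -0.19). Spans were found for 95.6% of the genes tested, with a median of 24.4 kb. Among the 12 lowest genes, Fhit spans 1612 kb, Immp2l 931.5 kb and Slc25a21 484.8 kb. Fhit was at 0.0690, 0.372, 0.0892 and 0.134 CPM with LX-A2003 and at 26.3, 15.5, 16.2 and 11.6 CPM with PBS, and fell by 6.69 ± 0.491. Immp2l was at 0.138, 0, 0.267 and 0 CPM against 25.0, 17.3, 14.8 and 20.6 and fell by 7.47 ± 0.451, and Slc25a21 fell by 6.26 ± 0.403.

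The effect of LX-A2003 was compared between 72 h and 168 h by the interaction of time and treatment, with each time against its own PBS group. At 72 h 1524 genes were called (12%), with 5.48% of genes higher and 6.55% lower. The effect differed for 3768 genes (29.7%), and was more positive at 168 h for 2015 (15.9%) and more negative for 1753 (13.8%); with scaling by totals these were 3784 and 802. Scarb1 was less reduced at 168 h than at 72 h, by 1.10 ± 0.315 (adjusted p = 0.00609). Long genes were already lower at 72 h: of the 272 genes that span more than 300 kb 52.2% fell and 0.735% rose (median -0.93), and of those of 10 kb or less 1.98% fell and 7.84% rose. Fhit was at -6.55 and Immp2l at -6.65 on the log2 scale at 72 h, and the difference between times was not called for either gene. The sterol synthesis genes were also already higher at 72 h, with 16 of 17 called and Sqle at 4.76. Of these 6 had a more positive and 3 a more negative effect at 168 h.

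Most of the other gene groups changed between the 2 times. The effect was more positive at 168 h for 20 of 29 cell cycle genes and more negative for none, and likewise, by edgeR's test, for 17 of 26 injury genes, 14 of 23 immediate early genes, 13 of 18 fetal liver genes and 11 of 21 interferon-response genes. In the opposite direction 1 injury gene and 1 interferon-response gene had an unadjusted p under 0.05. The effect was more positive for 21 of 30 matrix genes and more negative for 1. All 10 lipid-associated macrophage markers and 7 of 8 monocyte markers had a more positive effect at 168 h. It was more negative for 26 of 31 respiratory chain genes, 20 of 26 plasma protein genes, 18 of 27 conjugation genes and 16 of 24 growth hormone axis genes. These list counts were not computed with scaling by totals, under which 802 genes in place of 1753 had a more negative effect. Plaur, the urokinase receptor, had a log2 fold change of -0.22 at 72 h and 6.74 at 168 h. Ly6d went from 0.20 to 8.14, Rrad from -0.09 to 6.81 and Cyp21a1 from -1.36 to 5.95. In the other direction Hsd3b5 went from -0.47 to -6.32, Mup21 from -0.16 to -6.70, Ugt2b38 from -0.28 to -6.78, Pitx3 from 0.11 to -5.80 and Cyp26a1 from -0.22 to -6.05. The difference was called for each of these 9 genes.

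**Figure D5:**
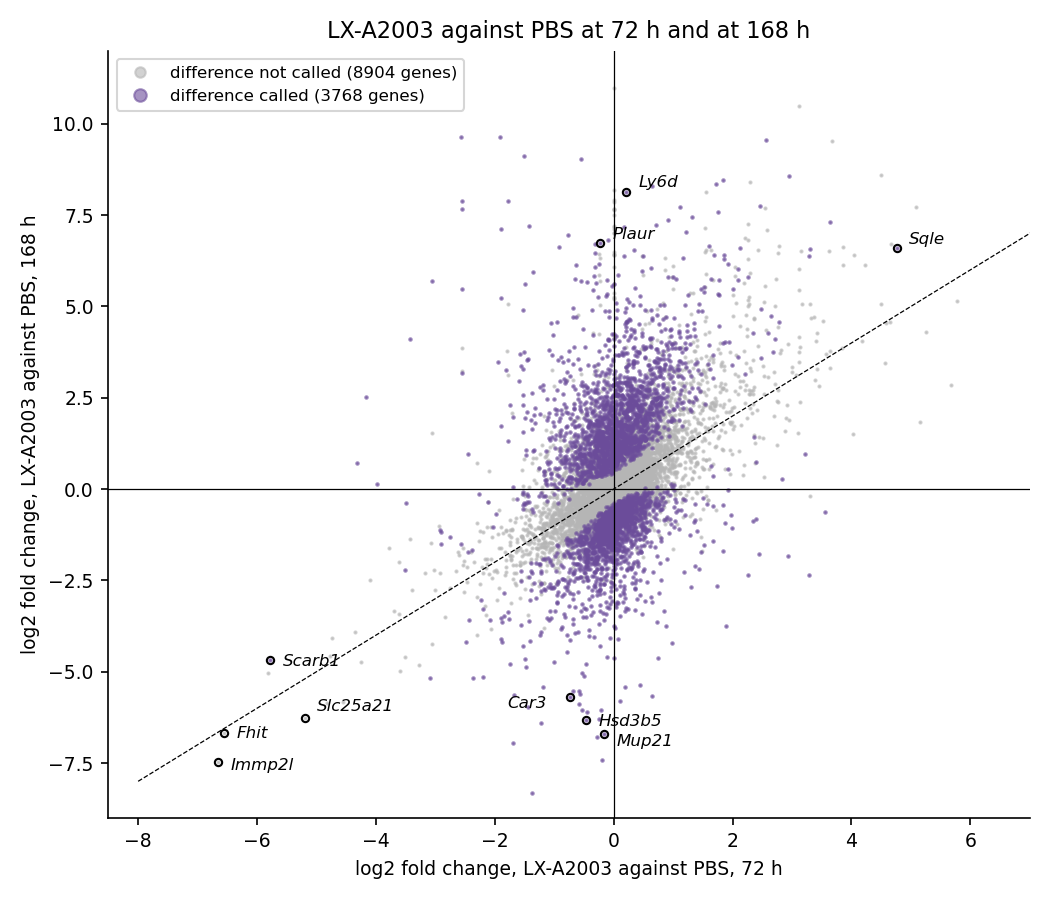
Log2 fold change of LX-A2003 against PBS at 168 h (vertical axis) against the same at 72 h (horizontal axis), 1 point per gene tested, with the 3768 genes whose effect differed between the times in purple. The dashed line marks equal effects. Fhit, Immp2l and Slc25a21 lie near that line, while Ly6d, Plaur, Mup21 and Hsd3b5 lie near 0 at 72 h and far from 0 at 168 h.

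LX-A2003 was last set beside the other gapmers at 168 h. Their comparisons with PBS share the PBS libraries, so their values are given side by side. LX-A1656 against PBS called 63.9% of genes (34.1% higher and 29.7% lower), and LX-A3928 against PBS 48% (27.3% higher and 20.7% lower). Doses are not stated and not known to match, and the differences were tested between the gapmer groups themselves. Scarb1 was not shown to differ: against LX-A1656 the log2 difference was -0.38 (95% interval -0.83 to 0.06; adjusted p = 0.185), and against LX-A3928 it was 0.41 (95% interval -0.05 to 0.87; adjusted p = 0.282). Against LX-A1656 4071 genes differed (32.1%), 2319 higher (18.3%) and 1752 lower (13.8%) with LX-A2003. Against LX-A3928 1026 genes differed (8.1%), 351 higher (2.77%) and 675 lower (5.33%). That second count was not stable: it was 29 when only the libraries compared entered the fit, 230 without LX-A3928 replicate 3 and 1807 without LX-A3928 replicate 4.

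Compared with LX-A1656, genes of hepatocyte metabolism differed in both directions. Car3 had a log2 fold change against PBS of -5.70 with LX-A2003 and -10.27 with LX-A1656, a difference of 4.57 ± 0.223 (adjusted p = 2.32e-20). Slco1a1 (-3.35 and -8.38) differed by 5.03 ± 0.435, Slc22a30 (-3.27 and -7.34) by 4.07 ± 0.365 and Cyp2c54 (-3.53 and -7.45) by 3.92 ± 0.467. Cib3 was higher by 4.25 ± 0.362 and Gm35164 by 3.85 ± 0.339. Of the conjugation enzymes 17 of 27 were higher with LX-A2003 than with LX-A1656 and 4 lower, and of the plasma protein genes 13 of 26 were higher and none lower. Urea cycle and amino acid genes ran the other way, with 5 of 30 higher and 16 lower, as did acute phase genes, with 2 of 20 higher and 6 lower. Of the 11 hepatocyte markers 3 were higher and 2 lower (median 0.09). Fatty acid synthesis genes were higher in 11 of 16 cases with none lower, and cell cycle genes in 17 of 29 with none lower, and no member of the plasma protein, fatty acid synthesis and cell cycle lists was lower at an unadjusted p under 0.05 by edgeR's test. Fetal liver genes were lower in 10 of 18 cases with none higher (1 at an unadjusted p under 0.05), and tissue injury genes in 12 of 26 with 1 higher. The lowest genes against LX-A1656 were Fam107a (-6.28 ± 0.514), 2010109I03Rik (-5.91 ± 0.379), the matrilysin gene Mmp7 (-4.50 ± 0.401), Upp2 (-4.29 ± 0.432), Sftpa1 (-4.02 ± 0.584) and Sds (-3.99 ± 0.356).

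Compared with LX-A3928, LX-A2003 gave higher immediate early genes in 12 of 23 cases and higher fetal liver genes in 8 of 18, with none lower in either list, also at an unadjusted p under 0.05 by edgeR's test. The tryptase gene Tpsab1 was higher by 4.00 ± 0.509 (adjusted p = 1.38e-06), Krt20 by 3.21 ± 0.391, H19 by 2.76 ± 0.364, Rrad by 2.99 ± 0.474, the lipid carrier gene Mfsd2a by 2.79 ± 0.491 and the steroid hydroxylase gene Cyp21a1 by 2.65 ± 0.486. Complement genes were lower in 11 of 22 cases and higher in 3, and P450 genes lower in 12 of 40 and higher in 1. Hsd3b5 was lower, at -3.34 ± 0.431 on the log2 scale, Sult2a8 at -3.31 ± 0.359, Mup21 at -3.20 ± 0.467, Slco1a1 at -2.39 ± 0.350, Arrdc3 at -2.30 ± 0.310 and Serpina7 at -1.95 ± 0.441. The instability of the count against LX-A3928 applies to these gene lists too. With only the libraries compared in the fit, 25 genes of all tested were higher and 4 lower. Most of the lower complement and P450 calls therefore did not hold there. Without LX-A3928 replicate 3, 145 genes were higher and 85 lower, so the balance of directions also depended on that library.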

How the data were processed

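RNA was isolated from mouse liver with TriPure reagent after bead homogenization, and the Ion AmpliSeq Transcriptome Mouse kit was used for sequencing, which amplifies 1 fragment per gene, per the labels' protocols. The deposited table holds raw read counts per gene for 48 libraries, which the authors had not normalized. The sources used here do not give the aligner, counter or genome build. Groups were taken from the sample titles, and no column of another study was in the table.

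Of 23930 genes, 12672 passed edgeR's filterByExpr. Counts were scaled with TMM factors and fitted in edgeR 4.0.16 (with limma 3.58.1, in R 4.3.3) by robust quasi-likelihood with 1 mean per group for all 12 groups, which leaves 36 residual degrees of freedom. All groups share 1 estimate of the spread, with a common biological coefficient of variation of 0.211. P-values were adjusted by Benjamini-Hochberg over all genes tested, and a gene was called at an adjusted p under 0.05. The standard error of a log2 fold change is its size over the root of the F statistic. The 8 libraries compared held 8239431 to 12230685 counts, and genes with a count were compared after thinning to the lowest total. A count of 0 over a group was set to a floor of 3 counts. Ratios on 1 to 3 counts have exact (Clopper-Pearson) 95% intervals, and both cover counting error only, since reads from PCR without molecular identifiers are not independent molecules. The procedure was run on simulated data in which few genes changed, with as many raised as lowered. That simulation does not cover a change as broad as the one between these groups.

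Scarb1 was named in every comparison. Among called genes that averaged 10 CPM or more in 1 group and whose libraries did not overlap, the 12 highest and 12 lowest fold changes were named, then the 6 largest gains and 6 largest losses of mean CPM, and up to 4 called members with the smallest p of each list. Other comparisons named up to 6 genes in each direction. Some genes that these rules name are not reported here. The 57 lists (42 of pathways and 15 of cell markers, with 4 genes matched through an older symbol) and all members were chosen with earlier results of these data known. Promoter windows came from RefSeq (GRCm38.p6), matched by symbol, and gene spans from GENCODE vM21.

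The alternatives were scaling by library totals, no filter on low counts, edgeR without robust estimation, a replicate block, only the compared groups in the fit, DESeq2 1.42.0, and each library left out in turn. Leaving out LX-A2003 replicate 4 with PBS replicates 2 and 4, or with PBS replicates 1 and 3, was chosen after seeing the data.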

Additional observations from a re-analysis of the deposited data

Results flagged for a closer look

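Among 372 groups of 4 values examined, 28 held a library far from the other 3, and chance gives about 1 in 20. That rate does not cover groups with 0 counts in all but 1 library, which the rule always flags. Groups of that kind are named in the next paragraph and at Mmp7, all in PBS. Of the 28 groups 22 were in PBS libraries and 6 in LX-A2003 libraries. PBS replicate 1 stood apart for Alb (50392 CPM against 36568 to 38205), Apoa1 (5755 against 3235 to 3422), Car3 (15517 against 13344 to 13534), Mup3 (19435 against 14016 to 14880), Cpt1a (318.8 against 374.8 to 386), Cib3 (0.628 against 0.254 to 0.310) and Mmp7 (0.126 against 0). In the same library the 50 most abundant genes held 31.7% of the counts against 29.3% to 29.6% in the others. PBS replicate 3 stood apart for Hsd3b5 (240.5 CPM against 683 to 718), Elovl3 (2139 against 1500 to 1582), Sc5d (269 against 285.6 to 287) and Dhx58 (21.8 against 15.4 to 16.5). It was also the highest PBS library for Jun (18.6 against 6.35 to 8.04), Mfsd2a (11.2 against 0.889 to 2.14), Srebf2 (19.5 against 8.89 to 10.7) and Plaur (1.62 against 0.127 to 0.377).

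Besides Mmp7, genes with 1 or 2 counts in a single PBS library and 0 in the other 3 were 2010109I03Rik (0.103 CPM), Bmp8b (0.207) and Ypel4 (0.207) in replicate 2, Gpnmb (0.135) in replicate 3, and Fam107a (0.127) and Krt20 (0.254) in replicate 4. LX-A2003 replicate 3 stood apart for Cxcl10 (35.5 CPM against 24.8 to 26.1), Pdgfra (14.4 against 18.3 to 18.9) and Pdia4 (240.0 against 266.9 to 272). LX-A2003 replicate 4 stood apart for Alb (21180 CPM against 14002 to 15199), Cyp7a1 (18.7 against 10.1 to 11.1) and Gbp2 (13.4 against 6.21 to 6.59).

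The effect of LX-A2003 differed between 168 h and 72 h for 3768 genes by the interaction term. The log2 difference (effect at 168 h minus effect at 72 h) was 1.10 for Scarb1, 7.94 for Ly6d, 7.31 for Cyp21a1, 6.96 for Plaur and 6.90 for Rrad. It was -6.53 for Mup21, -6.49 for Ugt2b38, -5.90 for Pitx3, -5.85 for Hsd3b5 and -5.83 for Cyp26a1.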

How the results depend on the processing

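The count of 6987 genes for LX-A2003 against PBS ranged from 6479 to 7184 when 1 library was left out and from 5594 (only these 8 libraries in the fit) to 7550 (scaling by totals, 77.7% of them higher in place of 54%) elsewhere. Scarb1 ranged from -4.78 to -4.54 on the log2 scale without 1 library, and was -4.25 with scaling by totals. Without LX-A2003 replicate 4 it was -4.85 when PBS replicates 2 and 4 were left out too, and -4.24 when PBS replicates 1 and 3 were. The count against LX-A1656 ranged from 3362 to 4596 without 1 library, and that of genes whose effect differed between the times from 3439 to 3864. The count of 1026 against LX-A3928 ranged from 230 to 1807 without 1 library: 506, 527, 604 and 1637 without LX-A2003 replicates 1 to 4, and 1801, 230 and 1807 without LX-A3928 replicates 2, 3 and 4. It was 29 (25 higher and 4 lower) with only those 8 libraries in the fit, 690 with no filter, and 727 with scaling by totals, where 57.5% were higher in place of 34.2%. The cause was not tested.

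Of the 182 genes followed against PBS, 1432 of 1453 values under other settings and 1443 of 1456 without 1 library kept direction and call. The only reversal was Hnf4a with scaling by totals (0.014). Serpina7 lost its call without LX-A2003 replicate 3 (1.03) or PBS replicate 3 (1.00). Ifit1 (0.93) and Scd1 (0.64) lost theirs without LX-A2003 replicate 4 and PBS replicates 2 and 4. Cyp7a1 was called with only the 8 libraries in the fit (0.89). Bst2 was called without LX-A2003 replicate 2 (-0.30) or PBS replicate 2 (-0.29), and Fam107a without LX-A2003 replicate 2 (2.85) or PBS replicate 4 (4.39). Scaling by totals added calls for Apoa1 (0.55), Stat2 (0.64) and Fam107a (2.88), and DESeq2 also called Fam107a (2.64).

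In lists where most members rose, the few lower genes also varied: cell cycle genes went from 1 to 0 without any 1 library other than LX-A2003 replicate 2 or PBS replicate 4, and p53, integrated stress, chemokine and lysosome genes from 2 to 1 without at least 1 library. Lower Kupffer cell markers went from 1 to 2 without LX-A2003 replicate 4 or PBS replicate 1 or 3.

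With the replicate number as a block 6932 genes were called against PBS, 3972 against LX-A1656, 903 against LX-A3928 and 3689 between the times. Under the block Bst2 was called lower (-0.26). The numbers were not shown to pair libraries: same-numbered LX-A2003 and PBS libraries correlated at 0.04, -0.47, -0.04 and 0.50 over 11472 genes. Only replicate 4 correlated best with its own number. Some differently numbered libraries correlated as strongly. LX-A2003 replicate 4 was at 0.49 with PBS replicate 2 and -0.55 with PBS replicate 3. LX-A2003 replicate 2 was at 0.47 with PBS replicate 3 and -0.49 with PBS replicate 4. The source of this shared variation was not tested.

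With 4 libraries a group and few counts per gene at low levels, a gene that was not called is not shown to be the same in both groups.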
